A study of Rattus norvegicus with 16 samples.

Results

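The subject was 9 genes that mark the endothelium of the liver, the cells that line its sinusoids and larger vessels: Lyve1, Stab1, Stab2, Pecam1, Kdr, Cdh5, Vwf, Tek and Eng. They were chosen by symbol, as every array probe whose RefSeq identifier mapped to one of those 9 rat genes, out of 12072 genes tested on the arrays. Of the 9, 6 had a probe, each with 1 probe in 2 spots, and 5 of these gave a signal that could be tested. No probe matched Stab1, Stab2 or Vwf, so those scavenger receptors and von Willebrand factor are not analysed here.

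Liver RNA came from male Sprague-Dawley rats aged 21 days, and each array held the pooled RNA of 2 pups. MM pups were born to dams given 1.0 mg per kg per day of a chemical mixture (methylmercury, polychlorinated biphenyls and organochlorine pesticides) in corn oil, and were moved at birth to other dams given the same mixture. M pups had the same exposure and stayed with their own dams. CC pups were born to corn oil dams and moved to other corn oil dams, and C pups stayed with their own corn oil dams. Each group had 4 arrays. The litter behind a pool is not given in the labels, so p-values measure the spread between these pools. Every array held liver RNA in Cy5 and a universal rat reference RNA, made from cell lines, in Cy3, with no dye swap. All MM and M arrays lay on slide 2 and all CC and C arrays on slide 1. The mixture and the slide therefore cannot be told apart, while MM against M and CC against C each lay within 1 slide.

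Sinusoidal endothelial cells are a fenestrated, scavenging endothelium that stands between blood and hepatocytes, and they carry the hyaluronan receptor Lyve1. Their survival and identity depend on vascular endothelial growth factor made by hepatocytes, which is read by the receptor tyrosine kinase Kdr, and on angiopoietin signals read by Tek. Eng is a co-receptor for bone morphogenetic proteins and transforming growth factor beta, and Cdh5 and Pecam1 hold endothelial cells to each other at their junctions.

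The RefSeq promoter table of the GRCr8 assembly held 3 of the 5 tested genes: Lyve1, Kdr and Eng. Their bases just upstream of the annotated gene start are shown because the probes of Lyve1 and Kdr had far more signal from liver than from the cell line reference, and Eng is the receptor beside them. Capitals mark AGGAAG, a core with flanks bound by the ETS factors of endothelium, or CTTCCT, the same letters read on the other strand.
Lyve1, chr1:174410978-174411227, minus strand: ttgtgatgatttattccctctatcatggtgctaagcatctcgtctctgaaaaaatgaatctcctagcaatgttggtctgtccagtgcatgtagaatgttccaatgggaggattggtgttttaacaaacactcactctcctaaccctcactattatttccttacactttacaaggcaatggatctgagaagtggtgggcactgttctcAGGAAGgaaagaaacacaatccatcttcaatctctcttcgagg
Kdr, chr14:32571813-32572030, plus strand: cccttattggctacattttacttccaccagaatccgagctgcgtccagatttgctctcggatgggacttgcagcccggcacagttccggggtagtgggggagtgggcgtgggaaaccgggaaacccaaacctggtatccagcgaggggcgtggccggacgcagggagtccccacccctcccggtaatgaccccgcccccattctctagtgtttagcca
Eng, chr3:36332029-36332189, plus strand: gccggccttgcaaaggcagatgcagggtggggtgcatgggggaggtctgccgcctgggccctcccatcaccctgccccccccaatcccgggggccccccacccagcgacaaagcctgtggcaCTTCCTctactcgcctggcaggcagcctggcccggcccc

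Both strands were searched. The 250 bases of Lyve1 held 1 AGGAAG match and were 41.6% G and C, the 218 bases of Kdr held 0 and were 61% G and C, and the 161 bases of Eng held 1 and were 72.7% G and C. Among all 33469 promoters cut to the same length, AGGAAG occurred in 29.5%, 25.9% and 19.4% in that order of genes. Also searched were GATAA, the core bound by GATA factors, GGGCGG, the box bound by SP and KLF factors, and ACAAT, the core bound by SOX factors. Lyve1 held 1 ACAAT, which 30% of promoters of its length hold, and Kdr held 1 GGGCGG, which 27% hold. No other match was found in these windows. A match describes letters and is no evidence of binding.

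The probe of Kdr gave a strong signal from liver RNA and that of Tek none above background. The Cy5 intensity of Kdr, before any correction, was 1723.5 to 3920.25 over the 16 arrays, above a local background of 66 to 73.25. Its reference signal was low, with a Cy3 intensity of 67.25 to 108.75. Averaged over all 16 arrays Kdr was 90.4-fold higher in Cy5 than in Cy3 after normalization.

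Lyve1 gave a Cy5 intensity of 569.75 to 881.75 over a background of 65.5 to 74.25. Its Cy3 signal was not well above background on any of the 16 arrays, so its ratio to the reference is a lower bound. Against the lowest Cy3 signals that were well above background on each array, Lyve1 was at least 27.1-fold higher in liver over all 16 arrays. By group this bound was 27.5-fold in MM, 29.1-fold in M, 27.6-fold in CC and 24.5-fold in C.

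After normalization within each array, the co-receptor and both junction genes were also above the reference, by folds that could be measured in both channels. The ratio was 2.69-fold for Eng, 2.18-fold for Cdh5 and 2.05-fold for Pecam1, averaged over the 16 arrays. Of all genes, 13.2%, 17.3% and 18.6% had a higher ratio in that order. Since dyes were not swapped, these folds keep any dye bias of their probes and are not set against each other as levels. The Cy5 signal was 143.25 to 198 for Eng, 120.25 to 175.5 for Cdh5 and 336.25 to 650.75 for Pecam1, beside a background of about 66 to 75.5. Their Cy3 signal was 100.75 to 123.75, 84.75 to 149.5 and 633.75 to 785.5 in that order, beside a background of 20 to 27.25. Before normalization Pecam1 was thus brighter in Cy3 than in Cy5 on each array, and Cdh5 was so on M 5 and MM 1. With each channel normalized between arrays, Cdh5 in M averaged a log2 of 7.06 in Cy5 and 7.16 in Cy3. For Eng in M the averages were 7.36 and 6.97. The folds of Eng, Cdh5 and Pecam1 rest on the normalization within each array. Kdr, Eng, Cdh5 and Pecam1 were well above background in both channels on 16 of 16 arrays.

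Tek, the angiopoietin receptor, was not well above background in either channel on any array. Its Cy5 intensity was 68 to 78.75 beside a background of 66.5 to 76, and its Cy3 intensity was 34.5 to 38.5 beside 19.5 to 24. It gives no fold and was not tested.

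**Figure D1:**
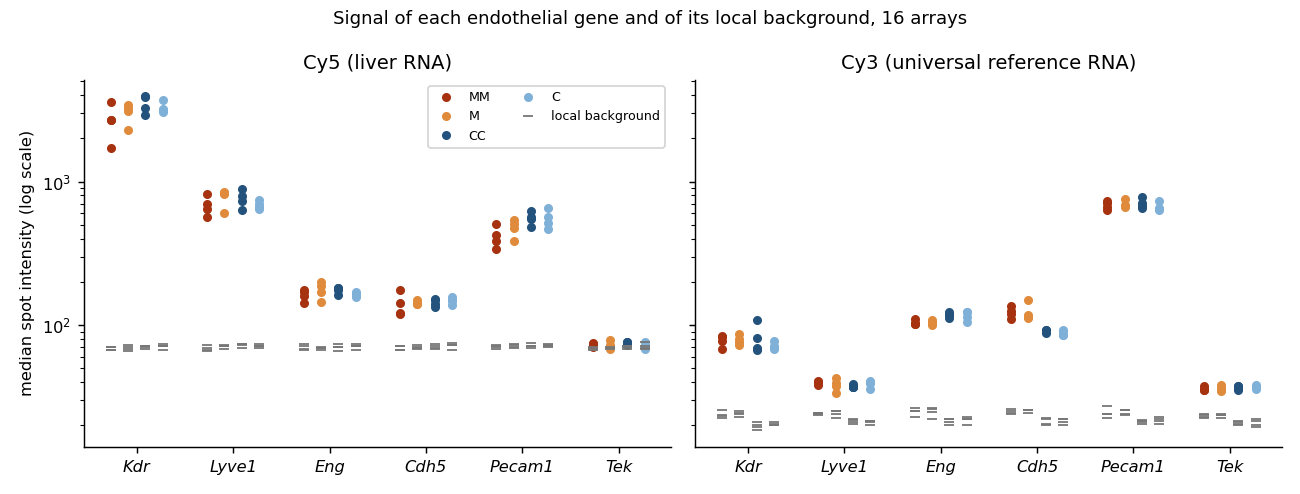
Median spot intensity on a log scale for the 6 genes with a probe in Cy5 (left) and Cy3 (right), 1 point per array in the groups MM, M, CC and C, with grey dashes for the local background. Kdr reaches 3920.25 in Cy5 and Tek lies at its background in Cy5, while Lyve1 has no Cy3 signal well above background.

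The tissue was checked against markers. All 8 of 8 hepatocyte markers, led by Ttr and Tf, were well above background in Cy5 on all 16 arrays. Blood platelets share several endothelial genes: 2 of 6 platelet markers with a probe (Pf4 and Gp1bb) were well above background on all arrays and 4 on none, and their summed Cy5 level was 822 to 911 in MM, 774 to 934 in M, 733 to 869 in CC and 773 to 834 in C. Arrays CC 1 and CC 2 stood apart: summed skeletal muscle markers, led by Tnnt1 and Tnni2, were 15695 and 13520 there, against 1013 and 1112 on the other CC arrays, 968 to 985 in MM, 973 to 1072 in M and 998 to 1022 in C. Summed exocrine pancreas markers, led by Ctrb1 and Cpb1, were also high on CC 2 (14011) and CC 1 (5168), on MM 1 (4032) and on M 6 (2150). CC 1 also had the highest sums of leukocyte markers, led by Laptm5 and Coro1a (6463), and of cholangiocyte markers, led by Spp1 and Krt19 (857). Leukocyte sums were 3120 to 3949 in MM, 3437 to 4232 in M, 3438 to 3899 on the other CC arrays and 3502 to 4143 in C, with 5 of 9 markers well above background on all arrays and 2 on none. Cholangiocyte sums were 519 to 630 on the other 15 arrays. The part of these signals in the results was not tested beyond leaving arrays out. Results that rest on CC are therefore given with and without CC 1 and CC 2 where it matters. In whole liver RNA, fewer endothelial cells and less RNA per cell cannot be told apart.

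The comparisons of MM with CC and of M with C, called the mixture comparisons here, hold the mixture and the slide together. Those of MM with M and of CC with C ask what fostering changed. None of the 5 tested endothelial genes was called in any of these comparisons. The threshold was an adjusted p below 0.05 in limma with Benjamini-Hochberg adjustment over all 12072 genes. Over all genes 20.3% were called in M against C (1003 higher and 1451 lower in M) and 20.2% in MM against CC (952 higher and 1486 lower in MM). Cyp1a1, the sentinel of aryl hydrocarbon receptor activity, was called higher in MM than in CC (limma, adjusted p = 3.03e-09) and in M than in C (adjusted p = 3.46e-09). Its Cy3 signal was not well above background on any array, so its folds are given from Cy5 alone, where it was 20.2-fold higher in MM and 18.1-fold higher in M. In MM against M and CC against C 0% of genes were called by limma, with 2.29% and 2.77% at an unadjusted p below 0.05 in that order. Of the 10 differences of the 5 endothelial genes in the mixture comparisons, 3 had an unadjusted p below 0.05, beside 33.6% of all genes where M was set against C and 33.7% where MM was set against CC. Of their 10 differences between fostered and unfostered groups, 0 did. For the 4 genes with a measured reference signal (Kdr, Eng, Cdh5 and Pecam1), the 95% confidence limits of the 16 differences reached at most 1.35-fold higher and 1.36-fold lower, within this normalization. For Lyve1, whose reference signal was not measured, the limits in Cy5 alone reached at most 1.27-fold higher, for M against C, and 1.16-fold lower, for MM against M.

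Cdh5 (VE-cadherin) came closest to the threshold and is the adhesion molecule of endothelial adherens junctions. Its log2 ratio was 0.80, 1.26, 0.90 and 1.07 on the MM arrays and 1.05, 1.05, 1.05 and 0.91 on the M arrays. It was 1.07, 1.23, 1.36 and 1.16 on the CC arrays and 1.27, 1.29, 1.26 and 1.25 on the C arrays. All 4 M arrays lay below all 4 C arrays, the only one of the 20 differences without overlap, and 25.2% of all genes did not overlap between M and C. Between MM and CC the arrays overlapped through MM 2 and MM 4.

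The log2 ratio of Cdh5 differed by -0.25 ± 0.09 (SE, n = 4 arrays per group) in M against C (limma, adjusted p = 0.0608) and by -0.20 ± 0.09 in MM against CC (adjusted p = 0.139). For M against C the difference was -0.23 among arrays of row 1 and -0.27 among those of row 2, and for MM against CC it was -0.12 and -0.28. Cdh5 passed the threshold in M against C when MM 1 was left out (adjusted p = 0.0413) or MM 2 was left out (adjusted p = 0.032), and in MM against CC without MM 2 (-0.28, adjusted p = 0.0305). The first 2 of these changes enter only through the spread that the groups share. With the log ratio of the scanner software in place of loess, Cdh5 fell by 0.73 in M against C (adjusted p = 4.36e-05) and by 0.63 in MM against CC (adjusted p = 0.000169). With median centring it fell by 0.32 (adjusted p = 0.00462) and by 0.29 (adjusted p = 0.00694) in that order, and with the deposited series table by 0.28 in M against C (adjusted p = 0.0465).

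The channels of Cdh5 differed. In Cy5 alone, quantile normalized between arrays, Cdh5 averaged 7.06 ± 0.12 in M and 7.09 ± 0.05 in C (log2, SD, n = 4 each), a difference of -0.04 (limma, adjusted p = 0.878). It averaged 7.08 ± 0.13 in MM and 7.01 ± 0.12 in CC, a difference of 0.07 (adjusted p = 0.783). In Cy3 alone, which holds no pup RNA, Cdh5 was higher by 0.33 ± 0.05 in M than in C (adjusted p = 2.38e-05) and by 0.33 ± 0.05 in MM than in CC (adjusted p = 2.26e-05). The Cy3 intensities were 110.5 to 136 in MM and 112 to 149.5 in M, against 87.75 to 92.75 in CC and 84.75 to 91.75 in C. Such a shift was common: of all genes, M against C called 66.2% in Cy3 alone and 2.23% in Cy5 alone, while MM against CC called 66.2% and 2.58%. None of the 5 endothelial genes was called in Cy5 alone in any comparison. Within a slide, 0% of genes were called in Cy3 alone in CC against C and 0.00828% in MM against M.

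Eng had the opposite reference shift. Its log2 ratio was 1.51, 1.43, 1.37 and 1.44 on the MM arrays and 1.31, 1.56, 1.83 and 1.44 on the M arrays, against 1.44, 1.43, 1.25 and 1.54 on the CC arrays and 1.30, 1.21, 1.52 and 1.25 on the C arrays. The groups overlapped, and M 7 was the highest array. The ratio differed by 0.21 ± 0.10 in M against C (limma, adjusted p = 0.152) and by 0.02 ± 0.10 in MM against CC (adjusted p = 0.916). In Cy3 alone Eng fell by 0.18 in M against C (adjusted p = 0.00155) and by 0.16 in MM against CC (adjusted p = 0.00317). In Cy5 alone the differences were 0.08 and 0.03. Eng was called higher in M against C with the scanner software's ratio (0.43, adjusted p = 0.0135) and with median centring (0.31, adjusted p = 0.0151).

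Lyve1, the hyaluronan receptor that marks sinusoidal and lymphatic endothelium, has a Cy3 signal that is not well above background, so its ratios hold a bound in the lower channel. The log2 ratio was 4.91, 5.07, 4.77 and 4.90 on the MM arrays and 4.86, 5.09, 5.18 and 5.13 on the M arrays. It was 5.23, 5.06, 4.90 and 4.70 on the CC arrays and 4.69, 4.80, 4.80 and 4.93 on the C arrays. M lay above C except for M 5, which was below C 12. MM and CC overlapped fully, and the highest CC arrays were CC 1 and CC 2.

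Lyve1 differed by 0.26 ± 0.11 in M against C (log2 ratio, limma, adjusted p = 0.0959), with 0.23 within row 1 and 0.29 within row 2. In MM against CC the difference was -0.06 ± 0.11 (adjusted p = 0.749). The difference between these differences was -0.32 ± 0.15, with an unadjusted p of 0.0503 and an adjusted p of 0.999, and 0% of all genes were called in that interaction. In Cy5 alone Lyve1 differed by 0.18 ± 0.07 in M against C (adjusted p = 0.245) and by 0.09 ± 0.07 in MM against CC (adjusted p = 0.625). In CC against C the ratio differed by 0.16 ± 0.11 (adjusted p = 1), with 0.39 within row 1 and -0.07 within row 2. Without CC 1 and CC 2, both of row 1, it differed by -0.01 and the interaction was -0.15; the part of the muscle signal in this was not tested.

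Kdr, the main receptor for vascular endothelial growth factor on endothelium, had a log2 ratio of 6.49, 6.64, 6.001 and 6.54 on the MM arrays and 6.36, 6.50, 6.54 and 6.65 on the M arrays. On the CC arrays it was 6.31, 6.64, 6.54 and 6.50, and on the C arrays 6.58, 6.49, 6.64 and 6.54. Every pair of groups overlapped, and MM 3 was the lowest of the 16. That array also had the lowest Kdr Cy5 signal, at a log2 of 11.20.

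The Kdr ratio differed by -0.08 ± 0.12 in MM against CC (limma, adjusted p = 0.68) and by -0.05 ± 0.12 in M against C (adjusted p = 0.801). Without MM 3 the first of these was 0.06. In Cy5 alone the differences were -0.18 ± 0.10 (adjusted p = 0.422) and -0.12 ± 0.10 (adjusted p = 0.618). The low ratio on CC 1 went with the highest Cy3 intensity of Kdr, 108.75, against 67.25 to 86 on the other arrays.

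Pecam1 (CD31) is an adhesion molecule shared by endothelium, platelets and leukocytes. It had a log2 ratio of 0.86, 0.99, 0.92 and 1.00 on the MM arrays and 0.94, 1.00, 1.13 and 0.99 on the M arrays. It had 1.09, 1.02, 1.14 and 0.99 on the CC arrays and 1.15, 1.14, 1.21 and 0.96 on the C arrays. Both exposed groups overlapped their corn oil groups, in M against C through C 12.

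Pecam1 was the least variable of the 5, with a within-group SD of 0.08, and 92.1% of genes varied more. The ratio differed by -0.12 ± 0.07 in MM against CC (limma, adjusted p = 0.255) and by -0.10 ± 0.07 in M against C (adjusted p = 0.341). In Cy5 alone it differed by -0.20 ± 0.07 (unadjusted p = 0.0121, adjusted p = 0.18) and by -0.18 ± 0.07 (unadjusted p = 0.0177, adjusted p = 0.204). Its Cy3 signal differed by -0.10 in MM against CC (adjusted p = 0.00743) and by -0.07 in M against C (adjusted p = 0.0505). Neither comparison passed the threshold in the ratio or in Cy5, while with median centring Pecam1 fell by 0.31 in MM against CC (adjusted p = 0.0206).

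**Figure D2:**
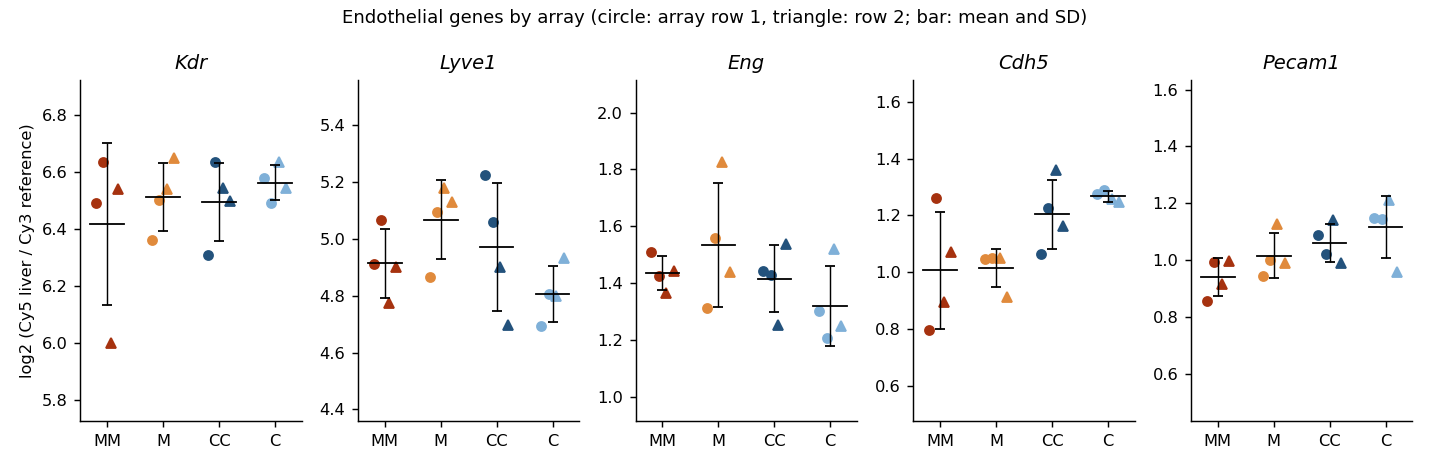
Log2 ratio of Cy5 over Cy3 of the 5 tested genes by array in MM, M, CC and C, with circles for array row 1, triangles for row 2 and bars for the mean and SD of 4 arrays. All panels span the same height. Within the 4 comparisons made, the groups overlap for each gene apart from Cdh5 in M against C.

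**Figure D3:**
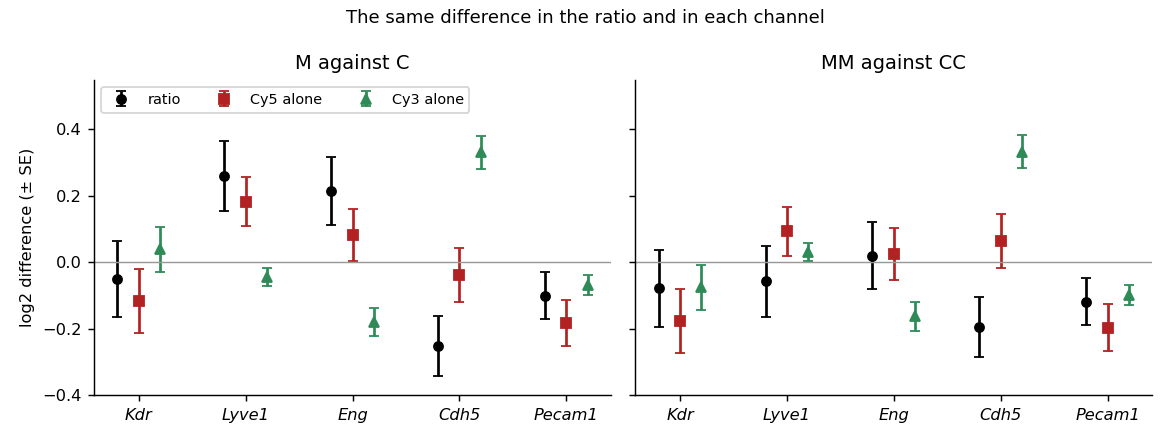
Log2 difference with its SE for the ratio, for Cy5 alone and for Cy3 alone, in M against C (left) and MM against CC (right). For Cdh5 the Cy3 difference is 0.33 in both panels while the Cy5 difference stays between -0.04 and 0.07.

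Fostering left no called difference in the 5 genes. In MM against M the log2 differences were -0.15 for Lyve1, -0.10 for Eng, -0.10 for Kdr, -0.07 for Pecam1 and -0.01 for Cdh5. In CC against C they were 0.16 for Lyve1, 0.10 for Eng, -0.07 for Kdr, -0.06 for Pecam1 and -0.06 for Cdh5. Every one of these 10 limma values had an adjusted p of 1 and overlapping groups. Without Lyve1, the widest confidence limits were 1.14-fold higher and 1.27-fold lower in MM against M, and 1.24-fold higher and 1.24-fold lower in CC against C.

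**Figure D4:**
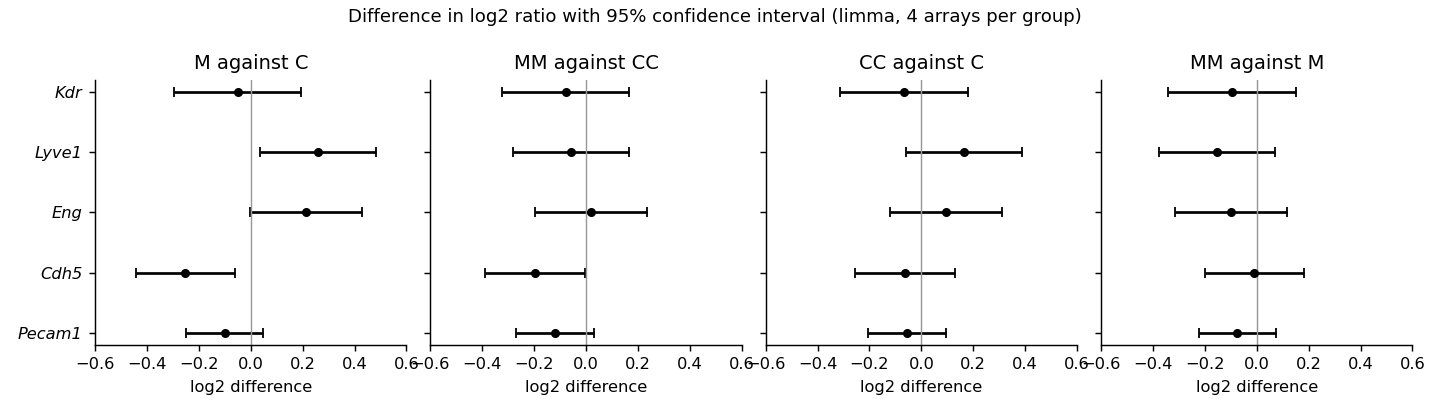
Difference in log2 ratio with its 95% confidence interval for the 5 genes in M against C, MM against CC, CC against C and MM against M. The intervals exclude 0 for Lyve1 and Cdh5 when M is set against C, and for Cdh5 when MM is set against CC, and none of these differences had an adjusted p below 0.05.

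Correlations between the 5 genes were weak across arrays. With each group's mean taken out, Pearson's r between 2 of them over 16 arrays was -0.15 to 0.45 and Spearman's rho -0.18 to 0.56. None of the 10 pairs had an adjusted p below 0.05 in a permutation test. The highest r joined Cdh5 and Pecam1 (r = 0.45), and Cdh5 with Kdr was close to it (r = 0.43). In Cy5 alone these were 0.26 and -0.03. Pearson's r by slide, over 8 arrays each, differed most for Kdr with Lyve1 (-0.40 on slide 1 and 0.78 on slide 2). For Kdr with Eng it was 0.15 and 0.29. Differences by slide were not tested, and the slide coincides with the mixture.

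The genes whose ratios were most like each one, out of 7887 with a symbol and after removing group means, were ranked by Pearson's r over the same 16 arrays, which share labelling and normalization. For Kdr they were Man2c1 (0.93), Cyp4a1 (0.89) and Ceacam1 (0.88). For Lyve1 they were Abcg5 (0.88), Clic5 (0.87) and Pecr (0.84). For Cdh5 they were Magix (0.86), Ces2j (0.81) and Fancl (0.80), for Eng Snx9 (0.81), Atxn10 (0.78) and Epn1 (0.77), and for Pecam1 Rpl3 (0.75), Dpp7 (0.75) and Hnf4a (0.75). The likeness of Lyve1 to Abcg5 was 0.89 without the 2 arrays farthest from the median of Lyve1, and that of Kdr to Cyp4a1 was 0.66 without the 2 farthest for Kdr. None of the 15 is another of the endothelial genes. Each is among the highest of 7887 values over 16 arrays, and the level reached by chance was not tested. No conclusion is drawn from the likeness or from the absence of other members.

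Around the markers, 4 lists held other genes of the same cells and pathways. These were sinusoidal genes, pan-endothelial genes, adhesion genes, and ligands and inhibitors of the receptors above with some signalling and target genes. The lists named 101 genes, of which 87 had a probe and 50 were tested. In M against C 7 of the 50 were called, 2 higher and 5 lower in M, a share of 14% beside 20.3% of all genes. In MM against CC 9 were called, 4 higher and 5 lower in MM, a share of 18% beside 20.2%. In MM against M and CC against C 0 were called. In each of the 16 called differences the ratio moved opposite to the Cy3 signal of the same probe. Cy3 is the divisor of the ratio, so opposite signs are favoured beforehand, and the share over all called genes was not computed. Just 1 of the 16 was called with the same sign in Cy5 alone too.

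That gene was Vcam1, the adhesion molecule that endothelium presents to leukocytes, which Kupffer and stellate cells can also carry. Its log2 ratio was 1.78, 1.81, 1.59 and 1.79 on the MM arrays, against 2.14, 2.38, 2.05 and 2.17 on the CC arrays. It was 1.74, 1.77, 1.72 and 1.69 on the M arrays, against 1.998, 2.12, 2.06 and 1.90 on the C arrays. Both exposed groups lay wholly below their corn oil groups; of all genes, 22.1% did not overlap between MM and CC.

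Vcam1 fell by 0.44 ± 0.08 in MM against CC (log2 ratio, limma, adjusted p = 0.00101) and by 0.29 ± 0.08 in M against C (adjusted p = 0.0161). In Cy5 alone the differences were -0.36 (adjusted p = 0.00355) and -0.20 (adjusted p = 0.103), and in Cy3 alone they were 0.03 and 0.08. Without CC 1 and CC 2 the fall in MM was 0.37 (adjusted p = 0.0141), and without C 10 the difference of M was -0.25 (adjusted p = 0.0541). Summed Kupffer cell markers, led by C1qb and Clec4f, were 13099 to 19420 in MM, 15103 to 20631 in M, 16454 to 21648 in CC and 18481 to 22062 in C, with 10 of 11 well above background on all arrays. Of these 11, 2 were called lower in MM than in CC and 0 in M against C. Of all genes 12.3% were called lower in MM than in CC and 12% lower in M than in C. Summed stellate and fibroblast markers, led by Col3a1 and Col1a2, were 13344 to 14988 in MM, 12311 to 18668 in M, 11835 to 23275 in CC and 12553 to 16983 in C, with 11 of 14 well above background on all arrays. Their part in the Vcam1 difference was not tested.

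Among 14 tested ligands and inhibitors, 4 were called in M against C, and the number was 5 for MM against CC. The share called over all genes was 20.3% and 20.2% in that order, and whether the list exceeded it was not tested. Angpt1, the agonist of Tek, fell in the ratio, with a log2 difference of -0.57 in M (adjusted p = 0.000162) and -0.40 in MM (adjusted p = 0.00285). Its Cy5 differences were -0.04 and 0.05, and its Cy3 differences 0.60 and 0.59. With the scanner software's ratio the MM difference was -0.83. Tgfb1, a ligand of the receptor complex that Eng joins, differed by -0.26 in M and -0.30 in MM (adjusted p = 0.0234 and 0.0122), with Cy5 differences of 0.05 and -0.05. In M it was not called with the series table (-0.17, adjusted p = 0.127) or the scanner software's ratio (-0.19, adjusted p = 0.434), and in MM the scanner ratio gave -0.56. The Cy5 signals of Angpt1 and Tgfb1 were each well above background on 11 of 16 arrays, so neither was tested when detection on all 16 was required. Id1 and Id2 are targets of bone morphogenetic protein signalling: the ratio of Id1 differed by -0.30 in M (adjusted p = 0.0189), and that of Id2 by 0.44 in M (adjusted p = 0.0302) and 0.76 in MM (adjusted p = 0.00118). In Cy5 alone Id1 differed by 0.00 in M, and Id2 by -0.06 in M and 0.22 in MM. The calls in M against C did not hold when single arrays were left out: M 7, M 8 or C 11 for Id1 (adjusted p = 0.0509 to 0.055), M 6, M 7, C 11 or C 12 for Tgfb1 (0.0524 to 0.0692), and M 6, M 7, M 8, C 10 or C 11 for Id2 (0.0543 to 0.0893). Id1 was also not called with the scanner ratio (adjusted p = 0.242), nor Id2 with median centring (adjusted p = 0.162).

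Vegfa, the ligand of Kdr, depended on the channel and the comparison. The log2 ratio of its brightest probe was higher by 0.64 in MM than in CC (limma, adjusted p = 0.00237) and by 0.22 in M than in C (adjusted p = 0.237). On the CC arrays it was -0.59, -0.24, 0.11 and -0.17, so CC 1 and CC 2 were the lowest. The call in MM against CC held in 28 of 29 other settings, including that without CC 1 and CC 2, but not in Cy5 alone. In Cy5 alone that probe fell by 0.52 in M against C (adjusted p = 0.0291) and differed by -0.01 in MM against CC (adjusted p = 0.974). Its Cy3 signal differed by -0.76 in M and -0.72 in MM. The other 2 probes of Vegfa had ratio differences of -0.28 and 0.35 for M against C, and of 0.14 and 0.67 for MM against CC.

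Of 15 tested pan-endothelial genes, 1 was called lower in M against C, and 2 were called lower in MM against CC. Of all genes 12% and 12.3% were called lower in that order of comparisons. S1pr1, a sphingosine phosphate receptor that keeps vessels tight, fell in the ratio, with log2 differences of -0.61 in M (adjusted p = 0.000225) and -0.33 in MM (adjusted p = 0.0177), with Cy5 differences of -0.30 (adjusted p = 0.0951) and -0.03. Without CC 1 and CC 2 the MM difference was -0.34 with an adjusted p of 0.0687, and without MM 4 it was -0.25 with an adjusted p of 0.0618. With scaling between arrays it was -0.26 with an adjusted p of 0.0641. The sialomucin Podxl differed by -0.54 in MM against CC (adjusted p = 0.00724), and by -0.38 without CC 1 and CC 2 (adjusted p = 0.0867). For MM against CC its Cy5 difference was -0.17 (limma, adjusted p = 0.573) and its Cy3 difference 0.38. The median over the 15 was a log2 difference of -0.07 for M against C and of -0.25 for MM against CC, beside -0.05 and -0.06 over all genes. In Cy5 alone the medians of the 15 were 0.02 and -0.04.

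Of 16 tested sinusoidal genes, 1 was called in the ratio in each mixture comparison. Gata4, the transcription factor that sets sinusoidal identity in mouse liver, was higher by 0.27 in M (adjusted p = 0.0132) and by 0.27 in MM (adjusted p = 0.0133). In Cy5 alone it differed by -0.05 and -0.12, and in Cy3 by -0.31 and -0.37. With median centring in place of loess it was not called (0.18 and 0.09). The list's median was 0.06 for M against C and -0.03 for MM against CC. In Cy5 alone the lysosomal protease Ctsl was higher by 0.62 in MM than in CC (adjusted p = 0.00969), with a ratio difference of 0.29 (adjusted p = 0.169).

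**Figure D5:**
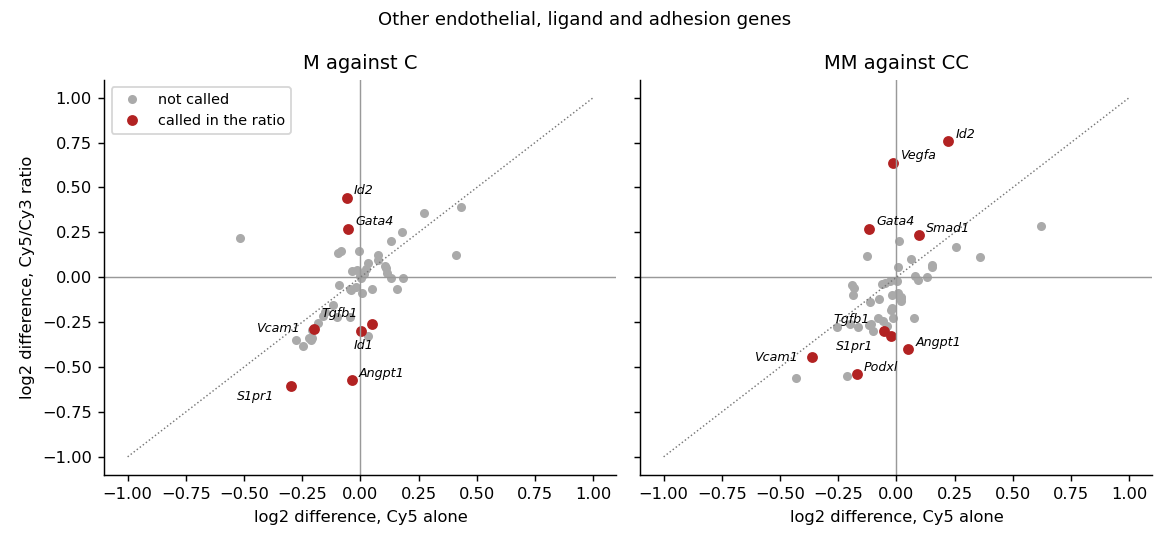
Log2 difference of the ratio against that of Cy5 alone for the 50 tested genes of the 4 lists, in M against C (left) and MM against CC (right), with called genes in red and a dotted line of equality. Vcam1 in MM against CC is the called gene whose Cy5 fall (-0.36) is also called, and Angpt1 and Gata4 lie near 0 in Cy5.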

How the data were processed

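Per the file headers, slides were scanned with Agilent Feature Extraction 11.0.1.1. The deposited files give each spot's median intensity and local background in Cy5 and Cy3, and a log10 ratio of Cy5 over Cy3 made by the scanner software. The deposited series table holds log2 ratios whose normalization is not given in the sources used here. Its medians were -0.0487 to -0.0371 and it correlated with the ratios computed here at 0.996 to 0.997 per array.

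Background was corrected by normexp (offset 50) and ratios by loess within each array. Outlier spots (1.32% to 1.85%) were dropped, and no spot was saturated. Probes were kept if well above background in Cy5 on at least 3 of 4 arrays of a group (13262 of 30367). The brightest probe stood for a gene, and 7895 of the 12072 genes had a symbol from the RefSeq table of GRCr8. No probe coordinates were used, since the files' build is rn4. Group means were fitted with limma 3.58.1 in R 4.3.3 over 16 arrays (12 residual and 3.94 prior degrees of freedom), with files read by the R packages jsonlite 2.0.0 and data.table (1.17.8). All tests were two-sided. Median intensities per array were 87 to 102 in Cy5, beside a background of 67 to 73, and 130 to 150 in Cy3, beside 20 to 26. The number of arrays limits the precision. Each channel alone was quantile normalized between arrays, and summed marker levels are sums of that Cy5 signal on the linear scale. Correlations were tested with 100000 permutations of the arrays. The pipeline was tested on simulated data.

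The endothelial genes, lists and alternatives were chosen with earlier results of these data known. The text names every one of the 9 genes, up to 4 called genes per list and comparison with the smallest adjusted p, and the 3 genes most like each tested one. Marker lists for cholangiocytes, leukocytes, erythroid cells, adipose tissue and smooth muscle were also measured. Their called members in MM against CC were 1 of 4, 2 of 6, 0 of 3, 0 of 4 and 0 of 5 in that order, and in M against C 1 of 4, 0 of 6, 0 of 3, 0 of 4 and 1 of 5. Over all genes the shares called were 20.2% in MM against CC and 20.3% in M against C.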

Additional observations from a re-analysis of the deposited data

Results flagged for a closer look

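The values of each tested gene were checked in groups of 4 arrays for an array far from the other 3, in the ratio and in each channel, 60 groups in all. Chance flags about 1 group in 20, and 7 were found. In the ratio, Cdh5 on M 8 was 0.915 (log2) while the other M arrays lay at 1.05. In Cy5, Eng on C 11 was 7.44 against 7.20 to 7.23 on the other C arrays. The remaining 5 lay in the reference channel: Pecam1 on MM 4 at 9.35 against 9.43 to 9.44, Kdr on MM 4 at 6.52 against 6.68 to 6.70, Kdr on C 10 at 6.55 against 6.63 to 6.65, Eng on M 5 at 6.93 against 6.98 to 6.99, and Lyve1 on M 6 at 5.84 against 5.97 to 5.97, the last below the level that counts as signal.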

How the results depend on the processing

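The count of called endothelial genes, 0 in each comparison, was 2 for M against C with the scanner software's log ratio or with median centring and 1 with the series table. For MM against CC it was 1 with the scanner ratio and 2 with median centring. Leaving out 1 array gave 0 to 1 in both, with 1 for M against C without MM 1 or MM 2 and 1 for MM against CC without MM 2. The genes so called were Cdh5 and, in M against C, Eng, or, in MM against CC by median centring, Pecam1. Over all genes, calls in M against C were 2454 in the main fit and 269 in Cy5 alone (196 higher, 73 lower). They were 4029 with the scanner ratio and 2339 with the series table (1122 higher, 1217 lower). Median centring also called more genes in M against C than the main fit did. In MM against CC the calls were 2438 in the main fit and 312 in Cy5 alone (260 higher, 52 lower). They were 3964 with the scanner ratio and 4868 with median centring (884 higher, 3984 lower). With the series table they were 2162 (1121 higher, 1041 lower) and, chosen after seeing the data, 1498 without CC 1 and CC 2. Whether the endothelial counts, each out of 5 tested genes, exceeded the share of all genes called was not tested. Median centring moved the median of all genes to -0.11 for M against C and -0.19 for MM against CC. Differences that changed sign in MM against CC were Kdr (0.0307 with the scanner ratio, 0.0146 with scaling between arrays), Lyve1 (0.0928 in Cy5 alone, 0.0156 with scaling, 0.114 without CC 1 and CC 2) and Cdh5 (0.0651 in Cy5 alone). Others were Cdh5 in MM against M (0.0226 in Cy5 alone), Lyve1 in CC against C (-0.0078 without CC 1 and CC 2), and in the interaction Kdr (0.21 with the scanner ratio, 0.0201 with scaling) and Cdh5 (-0.0028 without CC 1 and CC 2). In Cy5 alone Id1 (0.0006), Tgfb1 (0.0508), Id2 (-0.0584) and Gata4 (-0.0516) turned in M against C, and Vegfa (-0.0143), Angpt1 (0.0503) and Gata4 (-0.116) in MM against CC. Leaving out 1 array turned the sign within these ranges: Pecam1 interaction -0.0508 to 0.0344, Kdr -0.151 to 0.0602 in MM against CC, -0.168 to 0.0433 in MM against M and -0.101 to 0.111 in the interaction, Eng -0.034 to 0.0608 and Lyve1 -0.149 to 0.0272 in MM against CC, and Cdh5 -0.0939 to 0.0615 in MM against M and -0.0303 to 0.125 in the interaction. The cause was not tested. CC and MM share the numbers 1 to 4. Their same-numbered arrays correlated at 0.34, 0.05, 0.18 and 0.10, and differently numbered ones at -0.34 to 0.28. Same-numbered arrays also lay in the same array row, so these values do not decide whether the numbers are pairs. The main fit did not take them as pairs. With the number as a replicate block, 2011 genes and 0 endothelial genes were called in MM against CC. Under that block Tgfb1 (adjusted p = 0.0521) and S1pr1 (adjusted p = 0.0603) were no longer called there.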
